A study of Mus musculus with 40 samples.

Results

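The cytosolic ribosomal proteins are the protein components of the ribosome that translates nuclear-encoded mRNA, with a set in the large subunit (Rpl genes) and a set in the small subunit (Rps genes). The genes were taken from the array's gene symbols: those of the form Rpl or Rps with a number and, in some, a short suffix, together with Rplp0, Rplp1, Rplp2, Rpsa and Fau. The rule found 62 of the 19057 genes with a symbol of their own on the array, 37 of the large and 25 of the small subunit, on 92 probes. Each gene was represented by its probe with the highest mean over the 40 arrays, since 21 of the genes had several probes. Rpl7, Rpl10, Rpl10l, Rps27 and Fau were not analysed here.

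The arrays came from mouse splenic B cells of the C57BL/6 strain, isolated by negative selection on magnetic beads. Cells were Bank1-/- or WT and were taken at 0 h without stimulation (labelled control) or after CpG for 6, 24 or 48 h, which gave 8 groups of 5 biological replicates. CpG is unmethylated DNA that Toll-like receptor 9 senses, and Bank1 encodes a B cell scaffold protein. The Bank1-/- line carries its deletion in every cell and had been backcrossed for 9 generations. WT animals could be Bank1+/+ littermates or bought C57BL/6J mice, as both are given in the labels and neither is tied to an array, and age and sex are not given. No culture without CpG was taken at the later hours, so CpG and time in culture cannot be told apart.

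Ribosomal protein mRNAs make up a large and steady share of the mRNA of most cells. Most begin with a run of pyrimidines (a 5′ terminal oligopyrimidine, or TOP, tract), through which mTORC1 and the RNA-binding protein Larp1 set their translation. Their amount is therefore often controlled at translation, which an array of mRNA does not measure. Activated lymphocytes build ribosomes before they divide, with Myc and mTORC1 among the known regulators. A few ribosomal proteins have a paralog: Rpl22l1 beside Rpl22, Rps27l beside Rps27, Rpl7l1 beside Rpl7, Rps4l beside Rps4x, the muscle paralog Rpl3l beside Rpl3 and the testis paralog Rpl39l beside Rpl39. Ribosomal protein genes also have many processed pseudogenes in the mouse genome, and hybridisation of their transcripts to these probes was not tested.

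The DNA around the start of 9 of these genes is shown because they moved in different ways in the same cells: 6 rose at 6 h in WT cells, while Rpl22l1, Rps24 and Rpl36a fell there by their brightest probe (for Rps24 the mean of its probes was higher, at 0.34). Each stretch runs from 60 bases before to 30 bases after the first start that RefSeq lists (GRCm38.p6), and capitals mark CTTTCC, its reverse complement GGAAAG, or CCGGAAG. They lie at chr9:66946026-66946115 (plus strand) for Rps27l, chr17:46782627-46782716 (minus strand) for Rpl7l1 and chr4:152325666-152325755 (plus strand) for Rpl22. Those of Rpl13a, Rps26 and Rps6 are chr7:45128716-45128805 (minus strand), chr10:128626477-128626566 (minus strand) and chr4:86857338-86857427 (minus strand). Those of Rpl22l1, Rps24 and Rpl36a are chr3:28805448-28805537 (plus strand), chr14:24490618-24490707 (plus strand) and chrX:134585594-134585683 (plus strand).
Rps27l: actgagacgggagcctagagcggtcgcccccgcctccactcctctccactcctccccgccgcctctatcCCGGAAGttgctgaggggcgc
Rpl7l1: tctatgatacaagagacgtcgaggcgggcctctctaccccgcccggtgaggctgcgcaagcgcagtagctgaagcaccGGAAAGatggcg
Rpl22: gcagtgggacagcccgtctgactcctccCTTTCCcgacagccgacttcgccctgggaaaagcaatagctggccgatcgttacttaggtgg
Rpl13a: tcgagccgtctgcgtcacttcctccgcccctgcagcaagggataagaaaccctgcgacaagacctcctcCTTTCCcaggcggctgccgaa
Rps26: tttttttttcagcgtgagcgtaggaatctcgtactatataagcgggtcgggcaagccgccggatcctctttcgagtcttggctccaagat
Rps6: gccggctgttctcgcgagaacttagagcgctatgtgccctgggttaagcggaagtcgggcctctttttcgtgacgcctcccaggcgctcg
Rpl22l1: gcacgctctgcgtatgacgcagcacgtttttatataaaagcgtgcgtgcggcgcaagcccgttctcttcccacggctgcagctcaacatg
Rps24: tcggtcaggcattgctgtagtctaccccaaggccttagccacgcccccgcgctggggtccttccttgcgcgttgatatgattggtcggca
Rpl36a: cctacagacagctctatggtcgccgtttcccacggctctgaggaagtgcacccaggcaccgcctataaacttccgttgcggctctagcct
The capitals appear in Rps27l, Rpl7l1, Rpl22 and Rpl13a and in none of the other 5 stretches. Of the 62 genes 51 had a promoter of 300 bases (250 before to 50 after the start) in the RefSeq table of 27025 genes. On either strand CTTTCC was in 47.1% of these 51 promoters and 26.3% of all, CCGGAAG in 43.1% and 9.12%, and GGGCGG in 62.7% and 35.9%. These motifs were searched as letters only, their matches can overlap at their ends, and a match is not a binding site.

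Array brightness, the mean raw intensity per array, ran from 145.7 to 539.9, and 10396 to 16767 probes were above the level of olfactory receptor probes that served as background. B cell markers were present: 7 of 8 (Cd79b, Ms4a1, Cd22, Ptprc, Cd74, Blk and Ebf1) were detected on all 40 arrays and Pax5 on 13. Cd3d, Cd3e, Cd4, Cd8a, Itgam, Cd14, Itgax, Flt3 and Ncr1, markers of T, myeloid, dendritic and NK cells, were detected on 0 arrays. Other members of the same lists were detected: the dendritic marker Siglech on 40 arrays, the myeloid markers Adgre1 and Lyz2 on 36 and 19, and the T cell marker Lat on 25. Zbtb46, S100a8, Xcr1 and Csf1r were detected on 7, 6, 5 and 5 arrays. The erythroid markers Hbb-bs and Hba-a1 were detected on 40 and 20 arrays, and Slc4a1, Sptb and Alas2 on 7, 6 and 2. The platelet markers Gp9, Pf4, Ppbp and Itga2b were detected on 22, 20, 12 and 0. The targeted gene Bank1 was lower in the Bank1-/- groups at each time, with log2 differences of -1.84, -1.05, -2.48 and -2.27 at 0, 6, 24 and 48 h (limma adjusted p = 2.12e-05, 0.00401, 5.97e-08 and 5.96e-07). Its mean levels were 9.54, 6.76, 7.71 and 9.00 in Bank1-/- cells and 11.38, 7.81, 10.19 and 11.28 in WT cells. Bank1-/- arrays at 0 h ran from 7.71 to 10.22. One library, Bank1-/- 0 h replicate 5, stood apart from its label. Its root mean square log2 difference over the genes tested was 1.00 to the nearest array of its own group. To the nearest array of Bank1-/- cells at 24 h it was 0.163. The splits of ribosomal protein genes against 0 h in Bank1-/- cells are given with and without it. Other values include it unless stated. In these bulk samples a lower level from fewer cells of a type and from less RNA per cell cannot be told apart.

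Most of these genes lay at the top of the array's scale. Of the 57 that were detected on at least 5 arrays and tested, 24 had a mean log2 intensity of 14 or above, 20 lay between 12 and 14, 7 between 8 and 12, and 6 under 8. The 5 brightest probes were those of Rps2 at 14.72, Rplp1 at 14.67, Rps12 at 14.66, Rps29 at 14.61 and Rpl41 at 14.57. A probe's brightness also depends on its sequence, so these values do not rank the transcripts. On a single array, the probes used for these 57 genes took 3.49% to 5.98% of the summed raw intensity. Counting all 92 probes of ribosomal protein genes, they held 19 to 30 of the 100 brightest places.

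The 5 genes that failed the filter were Rps23 and Rpl39l, detected on 0 arrays, Rpl3l and Rpl17 on 1 each, and Rpsa, also known as the laminin receptor, on 4 with 2 probes. The dimmest genes tested were Rpl6 at a mean log2 of 6.28 (5 arrays), Rps20 at 6.63 (27), Rps4l at 6.77 (37), Rpl14 at 7.003 (36) and Rpl21 at 7.22 (39). Rps23, Rpl17 and Rpl6 encode core ribosomal proteins, so a dark probe here shows the limit of the probe and gives no level of the mRNA.

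**Figure D1:**
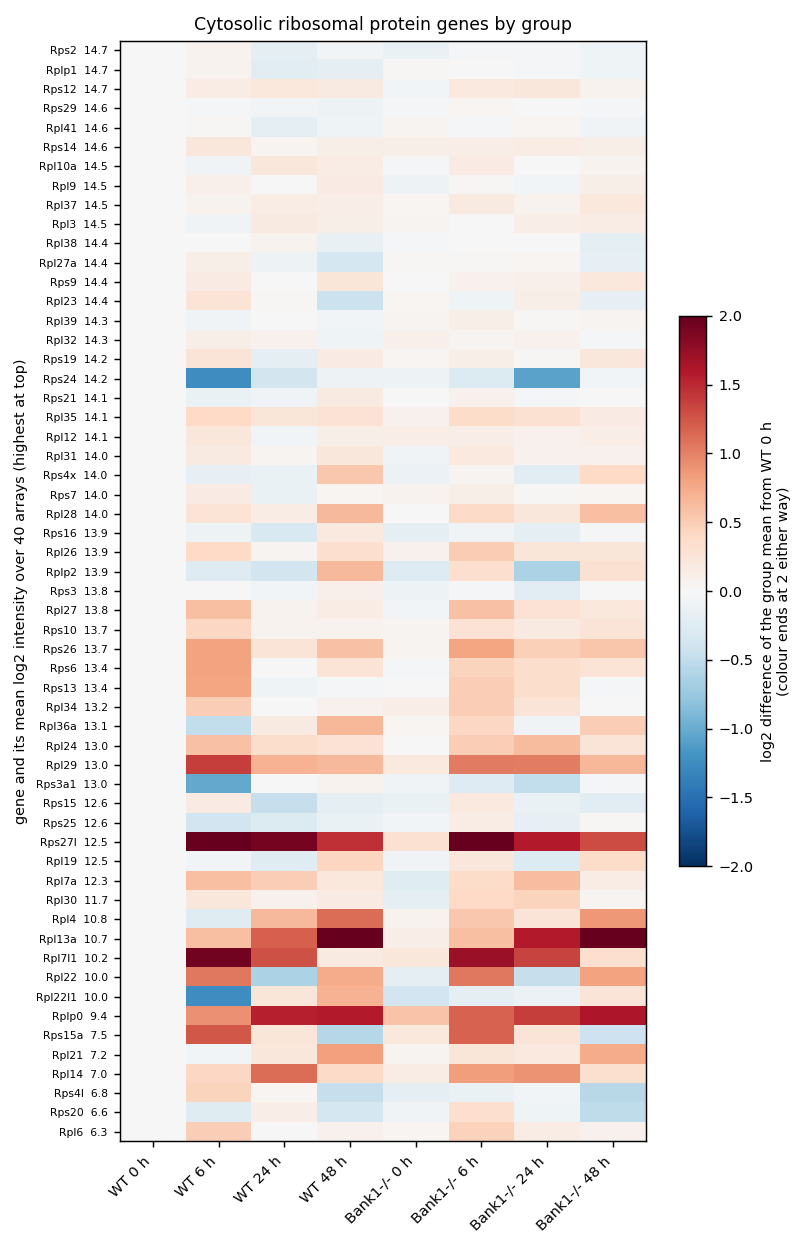
Difference of each group mean from WT cells at 0 h (colour, log2, ending at 2 either way) for the 57 tested ribosomal protein genes, ordered by mean level from the brightest at the top, in the 8 groups of genotype and hours (x axis). The genes with a mean of 14 or above vary little, and the strongest colours belong to genes of lower level such as Rps27l, Rpl7l1 and Rpl13a.

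No array reached the scanner's maximum of 65535. The highest raw intensity per array ran from 16608 to 37276 with a median of 30860, and the 99.9th percentile ran from 6611 to 30001. Rps2, a small-subunit protein, had raw intensities of 16123 to 34913 (median 27961). After normalization its log2 values in WT cells at 0 h were 14.86, 14.74, 14.79, 14.69 and 14.82, at 6 h 14.86, 14.92, 14.92, 14.92 and 14.61, and at 24 h 14.64, 14.61, 14.66, 14.39 and 14.70. The value 14.92 is the highest that quantile normalization gives to any probe, and Rps2 held it on 5 arrays. Rpl23, Rplp1, Rps12 and Rps24 held it on 1 array each.

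Ribosomal protein genes with a mean of 14 or above moved little across the 8 groups. The distance between the highest and lowest group mean had a median of 0.28 over these 24 genes (0.15 to 1.24), and 14.6% of their results against 0 h passed the test. The other 10 genes at that level had a median distance of 0.57, and 41.7% of their results passed. Between 8 and 12, ribosomal protein genes (n = 7) passed in 66.7% of results and other genes (n = 4227) in 70.1%, with a median absolute log2 difference of 0.67 and 0.63. Between 12 and 14 the shares were 46.7% of the results of 20 ribosomal protein genes and 72.5% of those of 170 others, and under 8 they were 41.7% and 50.6%. These level bounds were chosen after the values were seen. Whether the small differences at the top come from saturation below the scanner's maximum, from quantile normalization or from the cells was not tested.

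**Figure D2:**
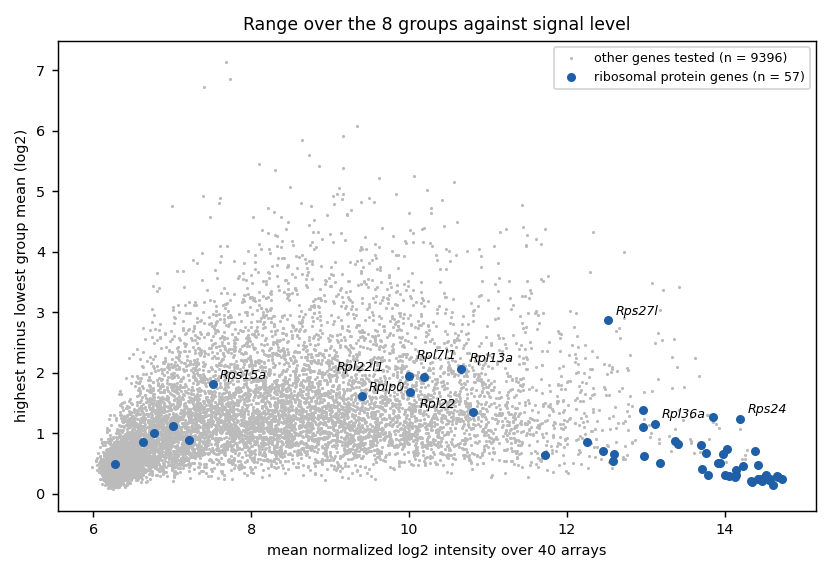
Distance between the highest and lowest of the 8 group means (y axis, log2) against mean level over 40 arrays (x axis, log2 intensity) for ribosomal protein genes (large points) and the other genes tested (small points). From 14 upwards the ribosomal protein genes sit at a median distance of 0.28, and Rps27l, at 12.5, has the longest distance among them.

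In WT cells 6 h of CpG moved ribosomal protein genes in both directions. Of the 57 genes 24 rose and 5 fell, a split that turned to 4 and 21 when arrays were centred on their median in place of quantile normalization. Over all genes tested 33% rose and 33.5% fell, so that 29 of 57 ribosomal protein genes changed where 66.5% of all genes did. At 6 h 14 genes had all WT arrays above those at 0 h and 2 had all below, against 24.1% and 25.9% of all genes. The median log2 difference was 0.16 for these genes and -0.01 for all genes. In the large subunit 16 rose and 2 fell of 34, and in the small subunit 8 rose and 3 fell of 23. The B cell markers moved in the same comparison: 8 of 8 were lower at 6 h and at 24 h, and their summed normalized intensity ran from 48728 to 52263 at 0 h, 15496 to 21974 at 6 h and 8902 to 9475 at 24 h. Their part in these results was not tested.

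Rps27l, the p53-inducible paralog of Rps27, had the largest rise. Its log2 values in WT cells were 10.92, 10.84, 11.50, 11.14 and 10.97 at 0 h and 12.75, 12.82, 13.43, 12.93 and 14.26 at 6 h. The 2 groups do not overlap, and replicate 5 at 6 h is the highest. The difference was 2.17 (SE 0.26, n = 5 per group, limma adjusted p = 2.05e-09).

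Rpl7l1, the paralog of the large-subunit gene Rpl7, was at 9.63, 9.36, 9.14, 9.19 and 9.24 in WT cells at 0 h and at 11.45, 11.42, 11.13, 11.14 and 11.03 at 6 h. All 5 arrays at 6 h are above all 5 at 0 h, and the rise was 1.92 (SE 0.17, limma adjusted p = 2.77e-12). The other detected Rpl7l1 probe, at a mean level of 7.10, rose by 0.43 (limma adjusted p = 0.00038). Rpl29, a large-subunit protein, was at 12.41, 12.05, 12.45, 12.36 and 12.08 at 0 h and at 13.86, 13.74, 13.73, 13.64 and 13.26 at 6 h. These groups are apart too, with a rise of 1.38 (SE 0.21, limma adjusted p = 3.83e-07).

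The small-subunit gene Rps15a moved from 7.26, 7.32, 6.92, 7.19 and 7.53 at 0 h to 8.67, 8.71, 8.39, 8.49 and 8.20 at 6 h, with no overlap. Its rise of 1.25 (SE 0.13, limma adjusted p = 1.32e-10) was gone by 48 h, when the values were 6.48, 6.81, 6.57, 6.75 and 6.80 and the difference from 0 h was -0.56 (adjusted p = 0.000384). The 48 h arrays are all below those at 0 h.

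Rps6, the small-subunit protein that S6 kinase phosphorylates downstream of mTORC1, was at 13.22, 12.90, 13.30, 13.29 and 13.01 in WT cells at 0 h. At 6 h it was at 14.16, 14.03, 14.13, 14.14 and 13.28. Replicates 1 to 4 at 6 h are above every array at 0 h and replicate 5 is among them, with a rise of 0.80 (SE 0.16, limma adjusted p = 2.73e-05). In Bank1-/- cells at 6 h Rps6 rose by 0.47 (adjusted p = 0.00893), which fitted on these 2 groups alone did not pass (0.0503). Rps26 and Rps13 rose by 0.80 and 0.79 in WT cells, Rps13 by its brightest probe only. The other Rps13 probe was at 0.03 at 6 h (limma adjusted p = 0.813) and at -0.63 and -1.10 at 24 and 48 h.

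Of the genes that fell in WT cells at 6 h, Rpl22l1 and Rps24 fell most, Rps24 by its brightest probe only: the mean of its detected probes was at 0.34 (adjusted p = 0.0241) and the dimmest at 1.74 (4.57e-17). Rps24, which is mutated in some human patients with Diamond-Blackfan anaemia, was at 14.53, 14.54, 14.70, 14.62 and 14.60 at 0 h and at 13.07, 13.04, 13.07, 12.95 and 14.69 at 6 h. Replicates 1 to 4 are far below 0 h and replicate 5 lies at the level of 0 h, so the groups overlap. The difference was -1.24 (SE 0.26, limma adjusted p = 6.66e-05). Array brightness in the same group was 145.7, 230.7, 231.9, 205.7 and 455.1 for replicates 1 to 5, so that replicate 5 was also the brightest array, and with brightness as a covariate the difference was -0.78 (adjusted p = 0.00186).

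Rps3a1, a small-subunit protein, fell from 12.96, 13.26, 13.29, 13.43 and 13.01 to 11.76, 12.16, 12.41, 12.08 and 12.45, with no overlap and a difference of -1.02 (SE 0.24, limma adjusted p = 0.00039). Rpl36a, of the large subunit, was at 12.82, 12.88, 13.23, 12.94 and 12.93 at 0 h and at 12.20, 12.08, 12.68, 12.33 and 13.03 at 6 h. Its groups overlap through replicate 5, and the difference of -0.50 (SE 0.15, adjusted p = 0.00321) did not pass with array brightness as a covariate (-0.28, adjusted p = 0.0695). Rps25 had a difference of -0.38 (adjusted p = 0.00847).

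The median log2 difference of all genes at 6 h in WT cells was -0.39 under median centring and -0.01 under quantile normalization. Under centring Rps27l, Rpl7l1 and Rpl29 still rose and Rpl22l1, Rps24, Rps3a1 and Rpl36a still fell by the same probes, while Rpl22 (0.08), Rps15a (0.34), Rps6 (0.11), Rplp0 (-0.03), Rpl13a (-0.38) and Rps14 (-0.06) did not pass.

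**Figure D3:**
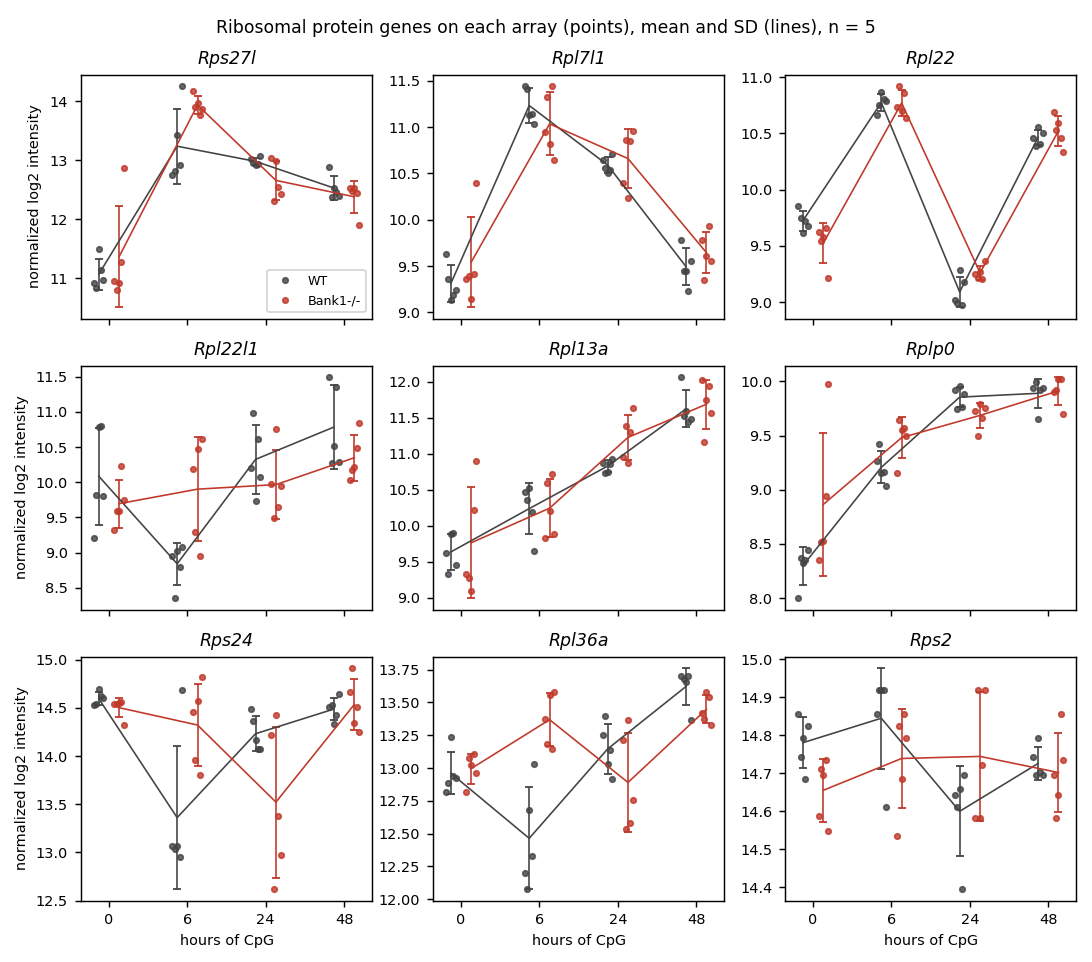
Normalized log2 intensity (y axis) of ribosomal protein genes on each array, with points for the 5 replicates, a line through the means of each genotype and bars of 1 SD, at 0, 6, 24 and 48 h of CpG (x axis, evenly spaced). Each panel has its own y axis, which does not start at 0. Rps27l and Rpl7l1 peak at 6 h, Rpl13a and Rplp0 climb to 48 h, and Rpl22 is above 0 h at 6 and 48 h and below it at 24 h.

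Rpl22 is a large-subunit protein with a part in lymphocyte development in the mouse, and it moved up, down and up again. Its log2 values in WT cells were 9.85, 9.75, 9.61, 9.72 and 9.68 at 0 h, 10.66, 10.75, 10.87, 10.80 and 10.79 at 6 h, 9.02, 8.99, 9.29, 8.97 and 9.18 at 24 h, and 10.46, 10.39, 10.56, 10.41 and 10.50 at 48 h. At each later time all 5 arrays lie on one side of those at 0 h. The differences were 1.05 (SE 0.08, limma adjusted p = 1.61e-13), -0.63 (0.08, 3.91e-08) and 0.74 (0.08, 2.37e-09), of which those at 6 and 24 h did not pass under median centring (0.08 and -0.39) and that at 48 h did (1.20).

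In Bank1-/- cells Rpl22 was at 9.62, 9.54, 9.58, 9.66 and 9.22 at 0 h, 10.73, 10.93, 10.70, 10.86 and 10.64 at 6 h, 9.25, 9.22, 9.26, 9.20 and 9.36 at 24 h, and 10.69, 10.53, 10.60, 10.46 and 10.33 at 48 h. The course was the same in form: a rise of 1.25 (limma adjusted p = 2.53e-15), a fall of 0.26 (0.00717) and a rise of 1.00 (2.35e-12). The groups at 0 and 24 h overlap only through replicate 5 at 0 h, the library that stands apart, and without it the difference at 24 h was -0.34 (adjusted p = 0.000365). Fitted on those 2 groups alone, the fall at 24 h had an adjusted p of 0.0635.

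Rpl22l1 is the paralog that Rpl22 is known to repress in the mouse. It was at 9.21, 9.83, 10.79, 10.80 and 9.81 in WT cells at 0 h and at 8.95, 8.35, 9.03, 8.80 and 9.08 at 6 h. All arrays at 6 h are below those at 0 h, which spread over more than a log2 unit, and the difference was -1.24 (SE 0.31, limma adjusted p = 0.000576). At 6 h in WT cells Rpl22 was thus higher and Rpl22l1 lower than at 0 h, Rpl22l1 also under median centring (-2.05, adjusted p = 0.000621) and Rpl22 without passing there. At 24 and 48 h Rpl22l1 did not pass in WT cells, and its arrays overlapped those at 0 h. It was at 10.21, 10.99, 9.74, 10.61 and 10.08 at 24 h, when Rpl22 was below its level at 0 h. At 48 h, when Rpl22 was above that level, Rpl22l1 was at 11.50, 10.27, 10.51, 11.35 and 10.29. In Bank1-/- cells at 6 h Rpl22 rose and Rpl22l1 did not pass. A link between the 2 genes was not tested.

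At 24 h in WT cells 10 ribosomal protein genes rose and 5 fell, against 34.6% and 30.1% of all genes, and 10 groups at 24 h lay wholly above and 3 wholly below those at 0 h, against 33.4% and 29.1%. The share of ribosomal protein genes that changed (15 of 57) was thus below that of all genes, 64.6%. Under median centring 8 rose and 0 fell. Besides Rps27l (1.91, adjusted p = 4.29e-08) and Rpl7l1 (1.28, 4.79e-08), the rises were led by Rplp0 (1.56, 5.26e-10) and Rpl13a (1.19, 3.57e-05). Of the falls, Rps15 (-0.47, adjusted p = 0.0103), Rps16 (-0.31, 0.00175) and Rpl19 (-0.24, 0.0255) were small, and under median centring they did not pass (-0.03, -0.08 and 0.19). Rpl3, the core gene beside the undetected muscle paralog Rpl3l, rose by 0.18 (adjusted p = 0.0375), a call that ended with array brightness as a covariate (0.0516) and under median centring (0.301).

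At 48 h in WT cells 17 rose and 4 fell (29% and 26% of all genes), and the split was 27 and 1 under median centring, where the median of all genes was 0.26 (0.01 otherwise). Of all genes 55% changed. Over the 57 genes, whether they passed or not, 13 had all 48 h arrays above those at 0 h and 4 had all below, against 27% and 24.7% of all genes. Rpl4, a large-subunit protein, was at 10.21, 10.28, 10.73, 10.41 and 10.37 at 0 h and at 11.63, 11.51, 11.43, 11.66 and 11.37 at 48 h, with no overlap and a rise of 1.12 (SE 0.17, limma adjusted p = 7.38e-07). That rise is by its brightest probe only: the other detected probe was at 0.40 and did not pass (limma adjusted p = 0.184). The falls were Rps15a (above), Rps4l (-0.46, adjusted p = 0.0241), Rpl23 (-0.43, 0.00283) and Rpl27a (-0.36, 0.00522). Of these only Rps4l passed under median centring (-0.38, adjusted p = 0.00475), and its call ended with array brightness as a covariate (-0.17, 0.294) and without WT 0 h replicate 4 (0.0532). By the mean of their probes Rpl23 and Rpl27a were higher at 48 h, at 0.23 (adjusted p = 0.0144) and 0.50 (9.94e-06).

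Rplp0 and Rpl13a are both often used as reference genes against which other transcripts are normalized. Rplp0, a stalk protein of the large subunit, was at 8.00, 8.37, 8.33, 8.35 and 8.45 in WT cells at 0 h, at 9.92, 9.75, 9.95, 9.77 and 9.89 at 24 h, and at 9.94, 9.99, 9.65, 9.92 and 9.94 at 48 h. The later groups are wholly above 0 h, and the rise at 48 h was 1.59 (SE 0.17, limma adjusted p = 3.35e-10). The rise at 6 h, 0.91 (adjusted p = 1.01e-05), was not seen under median centring (-0.03), while those at 24 and 48 h passed under it (1.79 and 1.99). The other detected Rplp0 probe was at 0.16, 1.24 and 0.92 at 6, 24 and 48 h (limma adjusted p = 0.617, 0.000103 and 0.00342). In Bank1-/- cells that probe was at 0.67, 0.44 and 0.41 (0.0288, 0.15 and 0.207).

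Rpl13a, a large-subunit protein, was at 9.61, 9.32, 9.88, 9.90 and 9.45 in WT cells at 0 h and at 12.07, 11.52, 11.60, 11.44 and 11.49 at 48 h. The 48 h arrays are all higher, by 1.99 on average (SE 0.24, limma adjusted p = 5.95e-09), and by 2.45 under median centring. At 6 h its rise of 0.60 (adjusted p = 0.0241) ended under median centring (-0.38, 0.291), with array brightness as a covariate (0.34, 0.222) and on leaving out any of 4 single arrays. In Bank1-/- cells Rpl13a was at 9.33, 9.27, 9.09, 10.22 and 10.90 at 0 h and at 12.03, 11.16, 11.74, 11.94 and 11.57 at 48 h. Replicate 5 at 0 h is the highest of its group. The rise there was 1.93 (adjusted p = 1.52e-08) and 2.21 without that array.

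Rps14, the gene lost in the human 5q- syndrome, gives an example of a bright probe. It was at 14.36, 14.45, 14.49, 14.51 and 14.42 in WT cells at 0 h and at 14.70, 14.72, 14.73, 14.70 and 14.53 at 6 h, with no overlap. The rise was 0.23 (SE 0.08, limma adjusted p = 0.01), did not pass with array brightness as a covariate (0.0538) and was -0.06 under median centring.

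The same comparisons in Bank1-/- cells gave rises for the most part. At 6 h 24 rose and 0 fell (31.2% and 29.5% of all genes), 8 groups at 6 h lay wholly above and 0 wholly below 0 h (14.4% and 12.9%) and 60.7% of all genes changed. The median log2 difference was 0.22 for these genes and 0.02 for all. Markers moved here too: 6 of 8 B cell markers were lower at 6 h and 7 of 8 at 24 h, with a summed normalized intensity of 9911 to 55126 at 0 h, 11171 to 19556 at 6 h and 9441 to 10715 at 24 h. The 0 h ranges of this sum and of the erythroid sum below include the library that stands apart. They were not taken without it. Of the erythroid markers 3 of 4 tested were higher at 6 h, with sums of 2901 to 6916 against 790 to 2728 at 0 h, and the part of both lists in these results was not tested. At 24 h 13 rose and 2 fell (29.2% and 30.6%), with 59.8% of all genes changed and 1 group wholly above and 0 wholly below 0 h (5.71% and 6.94%), and at 48 h 14 rose and 2 fell (25.4% and 25.6%), with 51% of all genes changed and 7 groups above and 3 below (12.7% and 10.5%). Under median centring these splits were 13 and 0 at 6 h, 1 and 2 at 24 h, and 5 and 2 at 48 h. Without the library that stands apart they were 27 and 0, 15 and 2, and 17 and 1. The counts of groups wholly above or below 0 h include that library, for these and for all genes, and were not taken without it.

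Rps27l in Bank1-/- cells was at 10.96, 10.81, 10.93, 11.28 and 12.88 at 0 h and at 14.17, 13.90, 13.97, 13.77 and 13.86 at 6 h. Replicate 5 at 0 h is the highest of its group and still below every array at 6 h. The rise was 2.57 (SE 0.26, limma adjusted p = 6.12e-11), and 2.94 without that array. At 24 and 48 h it was 1.29 (adjusted p = 4.69e-05) and 1.01 (0.00109), or 1.67 and 1.39 without it, and under median centring neither passed (0.90 at both times).

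Rpl7l1 in Bank1-/- cells was at 9.37, 9.40, 9.14, 9.41 and 10.39 at 0 h and at 10.94, 11.32, 10.82, 11.45 and 10.64 at 6 h. The groups do not overlap, and the rise was 1.49 (limma adjusted p = 1.84e-09), or 1.71 without replicate 5 at 0 h. At 24 h it was 1.12 (1.07e-06), and 0.58 under median centring without passing (0.0851). The other Rpl7l1 probe rose by 0.61 at 6 h and 0.23 at 24 h (limma adjusted p = 2.88e-06 and 0.0495). Rpl7a, a large-subunit protein, rose by 0.85 at 24 h (adjusted p = 0.000101), also not passing under median centring (0.49, 0.219). Rps24 had a difference of -0.98 at 24 h (adjusted p = 0.00128), with values of 14.22, 12.61, 14.43, 13.38 and 12.97 beside an array brightness of 407.0, 227.7, 349.5, 324.4 and 248.2 for replicates 1 to 5. The highest 2 Rps24 values are on the brightest 2 arrays. With brightness as a covariate the difference was -0.68 (adjusted p = 0.00461), and by the mean of the gene's probes it was 0.20 (0.213).

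At 48 h in Bank1-/- cells Rps15a was at 6.70, 6.80, 6.53, 6.98 and 7.17, all below the 7.50, 7.28, 7.39, 7.78 and 7.30 at 0 h. The difference of -0.62 (limma adjusted p = 0.00015) came with -0.56 in WT cells, and in both genotypes the groups were apart. Rps20, the other gene that fell there (-0.44, adjusted p = 0.0484), was detected on 1 of 5 arrays at 48 h, and its call ended on leaving out any of 29 single arrays and in the authors' processed table (adjusted p = 0.0803).

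The WT and Bank1-/- comparisons use different arrays, so their calls can be set side by side. At 6 h 17 genes changed in the same direction in both, which is 58.6% of the 29 in WT cells and 70.8% of the 24 in Bank1-/- cells. Among all genes tested the shares were 74.1% and 81.2%. Rpl36a changed in opposite directions (-0.50 in WT and 0.37 in Bank1-/- cells, adjusted p = 0.0273 for the latter). At 24 h 9 genes were shared (60% of each list of 15), and at 48 h 14 (66.7% of 21 and 87.5% of 16). The shares among all genes were 80% and 86.5% at 24 h and 78.9% and 85.2% at 48 h. Over all 10 comparisons 45 of the 57 genes changed at least once (78.9%, against 94.5% of all genes tested). The 12 that did not pass in any were Rpl10a, Rpl32, Rpl37, Rpl38, Rpl39, Rpl41, Rps2, Rps3, Rps7, Rps19, Rps21 and Rps29, and 11 of these have a mean level of 14 or above. Rpl6 was detected only at 6 h, on 2 WT and 3 Bank1-/- arrays. Set against the detection level at 0 h, its normalized value at 6 h was 1.22-fold higher in WT and 1.15-fold higher in Bank1-/- cells. In WT cells that level ran from 6.26 to 6.37 at 0 h and from 6.30 to 7.02 at 6 h (log2). These folds therefore give no bound on the change of the mRNA.

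Between Bank1-/- and WT cells before stimulation 0 of the 57 genes passed the limma test (3 at an unadjusted p under 0.05), while 1.51% of all genes did (0.719% higher and 0.793% lower). At 24 h 0 passed (8 unadjusted; 0.106% of all genes, 0.0423% higher and 0.0635% lower) and at 48 h 0 passed (3 unadjusted; 0.169%, 0.0952% higher and 0.0741% lower). At these 3 times 0 passed under each of the other normalizations, filters and probe rules, except that 1 passed at 0 h with array brightness as a covariate. At 24 h Rps14 was the one gene whose groups were apart (2.15% of all genes were apart in that direction and 2.58% in the other): it was at 14.59, 14.64, 14.60, 14.55 and 14.61 in Bank1-/- cells and at 14.54, 14.49, 14.49, 14.45 and 14.54 in WT cells. The difference of 0.10 had an adjusted p of 0.624.

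At 6 h 11 ribosomal protein genes were higher and 2 lower in Bank1-/- than in WT cells, among 14.5% and 7.57% of all genes, and the split was 53 and 0 under median centring, where the median of all genes was 0.60. The 13 of 57 are close to the share of all genes that differed, 22.1%. Groups lay apart for 2 of the genes, both higher, and for 0 that were lower (4.04% and 2.56% of all genes). The median difference was 0.01 for these genes and 0.05 for all genes. By subunit, 6 were higher and 1 lower of 34 in the large and 5 higher and 1 lower of 23 in the small subunit.

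Rpl36a was at 13.38, 13.18, 13.55, 13.15 and 13.58 in Bank1-/- cells at 6 h and at 12.20, 12.08, 12.68, 12.33 and 13.03 in WT cells. Every Bank1-/- array is higher, by 0.90 on average (SE 0.15, limma adjusted p = 5.58e-05). Rps25, a small-subunit protein needed in human cells for translation from several viral RNAs, was at 12.82, 12.72, 13.05, 12.72 and 12.89 in Bank1-/- and at 12.24, 12.19, 12.32, 12.41 and 12.36 in WT cells. Here too the groups are apart, by 0.54 (SE 0.13, adjusted p = 0.00315).

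Rpl22l1 was at 10.18, 9.30, 10.47, 8.95 and 10.61 in Bank1-/- cells at 6 h, against 8.95, 8.35, 9.03, 8.80 and 9.08 in WT cells. Replicate 4 of the Bank1-/- group lies within the WT range, and the difference was 1.06 (SE 0.31, limma adjusted p = 0.0129; 0.0561 without Bank1-/- 6 h replicate 5). Rpl4 was at 10.95, 10.69, 10.84, 10.74 and 11.46 in Bank1-/- and at 10.02, 10.07, 9.96, 10.05 and 10.73 in WT cells, where replicate 5 alone reaches the Bank1-/- values. Its difference was 0.77 (SE 0.17, adjusted p = 0.00158).

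Rps24 was at 14.46, 13.96, 14.57, 13.80 and 14.82 in Bank1-/- cells at 6 h, and the groups overlap through WT replicate 5 (14.69). It was 0.96 higher (SE 0.26, limma adjusted p = 0.00733). Rplp2, a stalk protein, was at 14.65, 13.91, 14.34, 13.83 and 14.32 in Bank1-/- and at 13.41, 13.14, 13.66, 13.30 and 14.60 in WT cells, overlapping through the same WT array, with a difference of 0.59 (adjusted p = 0.0225). Rps3a1, Rps27l, Rps20, Rpl21 and Rpl19 were 0.76, 0.70, 0.58, 0.31 and 0.28 higher. The 2 lower genes were Rps4l (-0.58, adjusted p = 0.0148) and Rpl23 (-0.36, 0.0295), a large-subunit protein that binds MDM2 in human cells. By the mean of its probes Rpl23 was at 0.16 (adjusted p = 0.136), and Rps24 did not pass by its dimmest probe (0.776).

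Array brightness moved with genotype at 6 h: the mean raw intensity was 254 ± 118 in WT and 420 ± 97.9 in Bank1-/- cells (SD, n = 5 each), and the Bank1-/- arrays were at 506.6, 348.2, 442.7, 290.3 and 511.2. With brightness as a covariate 2 of the 13 genes passed, Rpl36a at 0.57 (adjusted p = 0.0313) and Rps25 at 0.57 (0.0414), while 2.09% of all genes passed. The other 11 had an adjusted p of 0.333 or more. Without WT 6 h replicate 1, the dimmest array, 5 genes passed, and without WT 6 h replicate 5 it was 17.

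Markers of other cells also differed at 6 h. Of the erythroid markers 3 of 4 tested (5 on the array) were higher in Bank1-/- cells, with a summed normalized intensity of 2901 to 6916 against 1231 to 1976 in WT cells. Of the myeloid markers 2 of 4 tested (8 on the array) were higher, with sums of 729 to 845 against 592 to 718, with Itgam, Cd14 and Mpo detected on 0 arrays and Adgre1 and Lyz2 on 36 and 19 of 40. Of the platelet markers 1 of 3 tested was higher, and of the B cell markers 1 of 8 was lower. Before stimulation 2 of 4 myeloid and 1 of 5 plasma cell markers tested were lower in Bank1-/- cells. The part of these markers in the results was not tested.

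**Figure D4:**
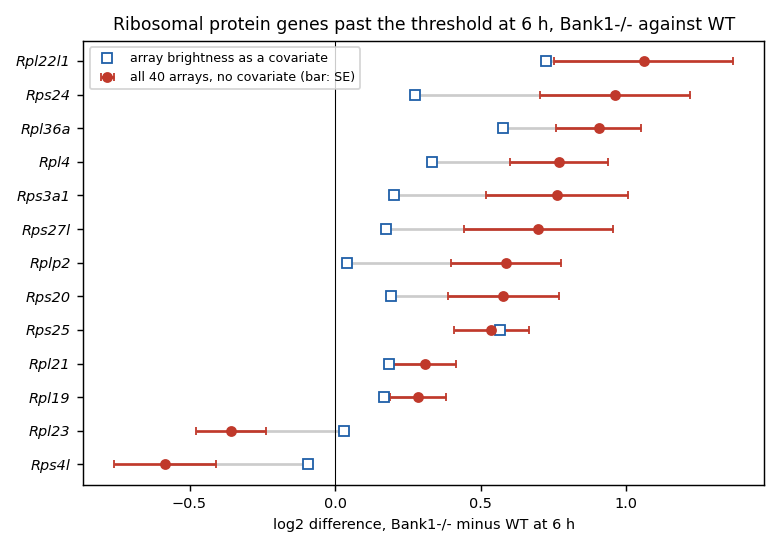
Differences between Bank1-/- and WT cells at 6 h (x axis, log2) for the 13 ribosomal protein genes that passed the test, with 1 gene per line: filled points with bars of 1 SE without a covariate, and open squares with array brightness as a covariate. Rpl36a and Rps25 keep differences of 0.57 with the covariate, and most of the others move towards 0.

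The response from 0 to 6 h differed between genotypes for 4 of the 57 genes, all with a larger value in Bank1-/- cells (5.63% of all genes in that direction). They were Rpl22l1 (1.45, SE 0.44, limma adjusted p = 0.0327), Rpl36a (0.87, SE 0.21, 0.00946), Rplp2 (0.84, SE 0.27, 0.0403) and Rps25 (0.59, SE 0.18, 0.036). For Rpl22l1 the 0 h values in Bank1-/- cells were 9.32, 9.59, 9.59, 10.24 and 9.75, so that its fall in WT cells at 6 h had no counterpart among those arrays. None of the 4 passed under median centring or with array brightness as a covariate, and the count ran from 1 without Bank1-/- 6 h replicate 3 to 9 without WT 6 h replicate 5. The responses at 24 and 48 h differed for 0 genes (5 and 2 at an unadjusted p under 0.05), against 0.455% and 0.0952% of all genes.

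Where a gene had several probes, the probes did not always agree. Of 114 combinations of a gene (19 with several detected probes) and a comparison with 0 h, 6 had probes that passed in opposite directions. The brightest Rps24 probe had a difference of -1.24 in WT cells at 6 h, and its other probes, at mean levels of 9.43 and 7.49, had 0.52 and 1.74. The brightest Rpl38 probe, at a mean level of 14.43, had -0.01, while another at 9.77 had 2.66.

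For Rps19 at 6 h in WT cells the brightest probe had 0.26 and another 1.46. At 48 h the Rpl31 probes had 0.23, 1.38 and 1.51 from the brightest to the dimmest. Rpl23 and Rpl27a at 48 h had -0.43 and -0.36 by the brightest probe and 1.29 and 1.71 by a probe at 10.06 and 10.10. Both Rpl29 probes rose at 6 h, by 1.38 and 1.78. The probe sequences were not used here, and whether the dimmer probes report another transcript form, a pseudogene or the same mRNA at a lower level was not tested.

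**Figure D5:**
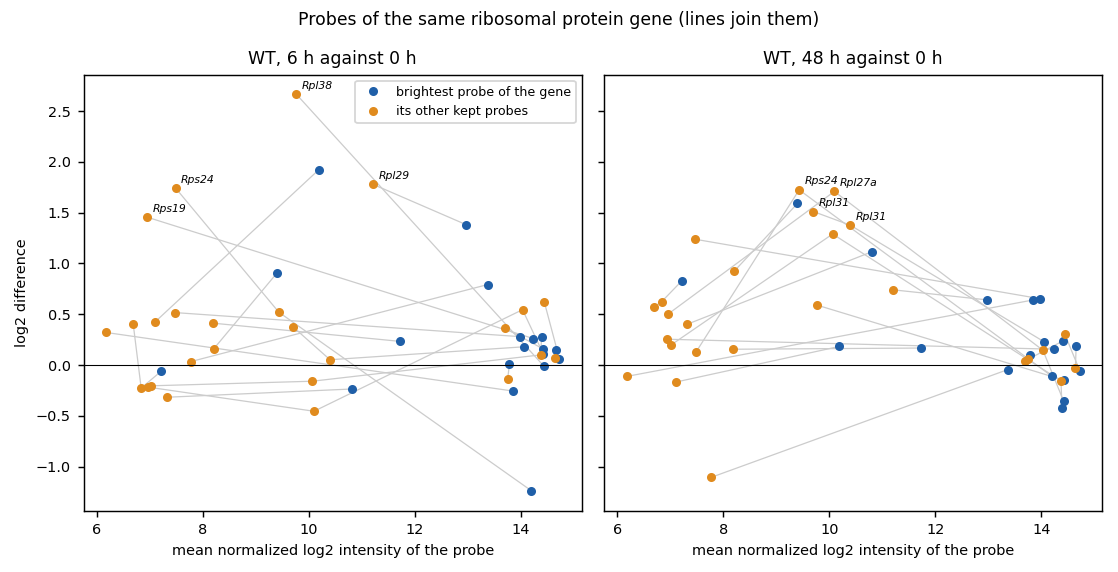
Log2 difference from 0 h in WT cells at 6 h (left) and 48 h (right, y axis) for each detected probe against its mean level (x axis, log2 intensity), for the 19 ribosomal protein genes with several detected probes, joined within a gene. At 6 h the brightest Rpl38 probe lies at -0.01 and a dimmer one at 2.66, and the Rps24 probes run from -1.24 to 1.74.

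Genes that share the translation machinery were set beside the ribosomal proteins. Of 21 tested genes of other TOP mRNAs and translation factors, 10 were higher and 2 lower in WT cells at 6 h (median 0.34), a split that became 1 and 8 under median centring. Those with the smallest p were Vim, which encodes an intermediate filament protein (-3.22, limma adjusted p = 1.33e-18), the elongation factor subunits Eef1g (1.08, 4.07e-11) and Eef1d (1.17, 2.51e-08), and Npm1, a nucleolar chaperone of ribosome assembly (1.02, 3.89e-07). At 24 h 13 were higher and 4 lower, and at 48 h 11 and 1. At 6 h between genotypes 2 were higher and 2 lower (19 and 1 under median centring), among them Eef2, which encodes the translocation factor of elongation (-2.84, adjusted p = 1.45e-05).

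Of 28 regulators of ribosomal protein synthesis and ribosome assembly, 18 were higher and 5 lower at 6 h in WT cells (median 0.44), 11 and 5 at 24 h, and 2 and 14 at 48 h (median -0.37). Under median centring these splits were 5 and 7, 10 and 1, and 2 and 1. At 6 h the smallest p-values belonged to Mxd4, an antagonist of Myc (-4.24, limma adjusted p = 5.12e-20), Grwd1, a chaperone for Rpl3 (2.49, 2.04e-16), Eif6, which keeps the subunits from joining early (1.52, 5.68e-14), and Lsg1, a GTPase of large-subunit maturation (1.63, 1.87e-11). Myc itself was 1.80 higher at 6 h and 0.59 and 1.38 lower at 24 and 48 h on the log2 scale. At 6 h it was 1.33 lower in Bank1-/- than in WT cells (adjusted p = 1.32e-05). In that comparison 5 of the 28 genes were higher and 4 lower (14.5% and 7.57% of all genes). The split was 20 and 0 under median centring, so that Myc did not pass as lower there. With array brightness as a covariate it was 0 and 1.

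The mitochondrial ribosomal proteins, which form the separate ribosome of that organelle, were counted in the same way. Of 72 tested genes 65 were higher and 0 lower at 6 h in WT cells (median 1.13), 68 and 0 at 24 h (1.08) and 29 and 3 at 48 h (0.38), while median centring gave 18 and 0, 65 and 0, and 40 and 1. In Bank1-/- cells the splits were 67 and 0, 66 and 0, and 18 and 7. Under median centring they were 50 and 0, 20 and 0, and 2 and 4. Without Bank1-/- 0 h replicate 5 they were 68 and 0, 69 and 0, and 37 and 5, and the WT split at 48 h was then 38 and 3. Of all genes 66.5%, 64.6% and 55% changed in WT cells and 60.7%, 59.8% and 51% in Bank1-/- cells. The medians of the cytosolic genes at the same times in WT cells were 0.16, 0.05 and 0.16. The difference between the 2 families was not tested.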

How the data were processed

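The authors deposited a table of probe intensity on a linear scale, not normalized per the file headers, and a processed table of log2 intensity, whose processing is not given in the sources used here. Biotin-labelled RNA was hybridised to Illumina arrays, per the labels' protocols. The deposited intensity was background corrected with normexp (offset 50), quantile normalized and put on the log2 scale (limma 3.58.1, R 4.3.3). Python 3.11.15 with pandas 2.3.3, numpy 2.4.6 and matplotlib 3.10.9 served for sequences and figures. Of 45281 probes 34885 had 1 gene symbol in the platform annotation, 18 several and 10378 none. Of the table's columns 8 matched no sample and were not used, and 0 pairs of arrays were identical.

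A probe was detected above the 99th percentile of 1287 olfactory receptor probes, and a gene was tested if its brightest probe was detected on at least 5 of 40 arrays, which left 9453 genes. limma (lmFit and eBayes) was fitted with 1 coefficient per group over 40 arrays, with 32 residual degrees of freedom. The 13 comparisons set the genotypes against each other at 4 times, set 6, 24 and 48 h against 0 h in each genotype, and tested how these responses differed. Tests were two-sided, with Benjamini-Hochberg adjustment over all 9453 genes and a threshold of 0.05 ("passed", "rose" and "fell" mean an adjusted p below it). The script was tested on simulated data. A gene detected on no array of a group has only a bound there, taken against the higher of the detection level and its own value on each array. With 5 arrays in a group, their number limits the precision.

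The members and the gene lists were chosen with earlier results of these data known. Genes named are the 4 largest rises and falls that passed in each comparison, the 5 highest and lowest levels, paralogs, Rps6, Rplp0, Rpl13a, Rps14 and Rpsa, up to 3 differences of responses, up to 3 genes against the main direction, and up to 4 of each other list. Others are named where a count was small or a gene, probe or pattern was singled out after its values were seen (Rplp2, Rps13, Rps26, Rpl38, Rps19, Rpl31 and the 12 genes that passed nowhere). The alternatives were the authors' table, median centring, no detection filter, array brightness (log2 of the mean raw intensity) as a covariate, the replicate number as a block, the compared groups alone, the mean of a gene's probes and each array left out. The dimmest detected probe was added after seeing the data. Promoter sequences came from RefSeq (GRCm38.p6), in which all 62 symbols were found.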

Additional observations from a re-analysis of the deposited data

Results flagged for a closer look

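Of 256 group values of 32 ribosomal protein genes, 25 had a replicate set far from the other 4 of its group. Chance alone gives about 1 in 20. In WT cells at 6 h replicate 5 was the far one in 7 genes: high in Rps24 (14.69) and Rpl4 (10.73), and low in Rpl27a (14.41), Rpl41 (14.40), Rps14 (14.53), Rps2 (14.61) and Rps6 (13.28). That array was the brightest of its group, with a mean raw intensity of 455.1. Replicate 1 of the group was low in Rpl21 (6.28) and was the dimmest array, at 145.7.

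In Bank1-/- cells at 0 h replicate 5 was far from the others in 5 genes, at 12.88 for Rps27l, 10.39 for Rpl7l1, 14.70 for Rps12, 9.22 for Rpl22 and 14.33 for Rps24. It is the library whose nearest array was one of Bank1-/- cells at 24 h. In WT cells at 48 h replicate 1 was high in Rpl13a (12.07), Rpl29 (13.22), Rps14 (14.86) and Rps27l (12.88), replicate 5 high in Rpl27a (14.41) and low in Rpl36a (13.37), and replicate 3 low in Rplp0 (9.65). The others were Rplp0 at 8.00 and Rps12 at 14.76 in WT cells at 0 h (replicates 1 and 3), Rps2 at 14.39 in WT cells at 24 h (replicate 4), and Rps27l at 11.91 and Rps29 at 14.77 in Bank1-/- cells at 48 h (replicates 5 and 2).

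Between genotypes the change from 0 to 6 h differed for Rpl22l1 by 1.45, for Rpl36a by 0.87 and for Rps25 by 0.59 (log2, Bank1-/- minus WT), each by a test of the difference itself in limma. Rpl36a moved in opposite directions in the 2 genotypes.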

How the results depend on the processing

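Precision was limited by 5 arrays per group. At the top of the scale differences between groups were small, and so was the spread within groups. The median residual SD of ribosomal protein genes was 0.14 at 14 and above and 0.25 between 12 and 14. The authors' processed table changed no count of genes by over 1.5 times. Median centring gave 53 genes in place of 13 between genotypes at 6 h, 8 in place of 15 in WT cells at 24 h, 13, 3 and 7 in place of 24, 15 and 16 in Bank1-/- cells at 6, 24 and 48 h, and 0 in place of 4 for the difference of 6 h responses. It turned Rpl13a (-0.38), Rplp0 (-0.032) and Rps14 (-0.060) at 6 h, Rpl19 (0.19) at 24 h and Rpl23 (0.035) and Rpl27a (0.057) at 48 h in WT cells, and Rpl23 (0.11) between genotypes at 6 h. Under it the median log2 difference of all genes was 0.10 in WT cells at 24 h (0.04 otherwise), -0.05, -0.23 and -0.06 in Bank1-/- cells at 6, 24 and 48 h (0.02, 0.01 and -0.02), and 0.12, -0.34 and -0.24 between genotypes at 0, 24 and 48 h (0.03, -0.02 and -0.001).

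Array brightness as a covariate gave 1, 2 and 0 genes in place of 0, 13 and 4 between genotypes at 0 h, at 6 h and for the difference of 6 h responses, and Rpl23 was at 0.030 between genotypes at 6 h. The compared groups alone gave 4 genes between genotypes at 6 h, 26 in WT cells at 24 h, 14 in Bank1-/- cells at 6 h and 0 for the difference of responses, with fewer arrays behind each spread. No detection filter gave 1 for that difference. The mean of a gene's probes gave 28 genes in WT cells at 24 h and turned Rps24 at 6 h (0.34), Rpl23 (0.23) and Rpl27a (0.50) at 48 h in WT cells, Rps24 in Bank1-/- cells at 24 h (0.20) and Rpl23 between genotypes at 6 h (0.16). The dimmest detected probe turned the same 5 (1.74, 0.20, 0.50, 0.088 and 0.45). Except where an alternative removes arrays or takes another probe, the cause was not tested.

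Leaving out 1 array gave 0 to 1, 5 to 17, 0 and 0 genes between genotypes at 0, 6, 24 and 48 h, 25 to 34, 13 to 20 and 18 to 25 in WT cells and 19 to 27, 13 to 18 and 13 to 20 in Bank1-/- cells at 6, 24 and 48 h, and 1 to 9, 0 and 0 for the differences of responses. Replicate numbers did not pair the arrays: of 50 pairs of groups' same-numbered arrays 18 had deviations correlated over 0.1 (-0.398 to 0.320), and no comparison had all its pairs over it. With the replicate block the counts were 0, 13, 0 and 0 between genotypes, 29, 16 and 20 in WT cells, 24, 14 and 16 in Bank1-/- cells, and 4, 0 and 0 for the differences of responses. Of 61 named results the block ended 1 call, Rps6 in Bank1-/- cells at 24 h.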
